A study of Mus musculus with 6 samples.

Results

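The genes described here are 7 members of the plasminogen activation system and its surroundings in NIH3T3 cells: the urokinase gene Plau, the tissue plasminogen activator gene Plat, the urokinase receptor gene Plaur, the serpin genes Serpine2, Serpinb2 and Serpinf1, and the tissue factor gene F3. They were chosen by gene symbol, and all 7 were found among the 55401 genes of the deposited tables. NIH3T3 is an immortalised line of mouse embryonic fibroblasts, wild type per the labels. Polyadenylated RNA was sequenced from 3 libraries given the DMSO vehicle and 3 given IPRN. The series title names angelicin, a furanocoumarin of plant origin, and the design text states that hydrogen peroxide and TGF-β were used to model fibroblasts of tumours. No dose or time is given for IPRN, and whether the DMSO cells also received both stimuli is not stated. The labels do not say whether the libraries came from separate cultures, so the p-values speak of spread among these 6 samples alone, possibly technical.

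Plasminogen is a zymogen that urokinase and tissue plasminogen activator cut to plasmin, a protease that dissolves fibrin, degrades matrix proteins and activates other proteases and growth factors. Urokinase acts mostly at the cell surface, held there by its lipid-anchored receptor, while tissue plasminogen activator works best on fibrin. Serpins are suicide inhibitors that trap such proteases in a covalent complex, which the endocytic receptor LRP1 clears, and tissue factor starts the coagulation cascade that produces the fibrin. Fibroblasts can make both activators, the receptor and several serpins, and use them in wound repair and invasion.

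Under IPRN, Plau, Plaur and F3 fell, and for Plat and Serpinf1 the groups overlapped. Plau fell 1.64-fold, from 51.9 ± 2.90 to 31.7 ± 2.86 CPM (SD, n = 3), where CPM is a count scaled to library size with TMM factors. Plaur fell 1.26-fold and F3 1.22-fold. Genes were tested by the quasi-likelihood method of edgeR, with p adjusted by Benjamini-Hochberg over 17159 genes. At an adjusted p of 0.05, 3 of the 7 members passed, all 3 lower and 0 higher: Plau at 0.00986, F3 at 0.0427 and Plaur at 0.0490. No member was called without DMSO 1, without DMSO 2 or with replicate number as a block. Over all genes tested, 5.47% were called, 3.01% lower and 2.46% higher. All 3 IPRN libraries lay below all 3 DMSO libraries for 5 members, Plau, Plaur, F3, Serpinb2 and Serpine2, against 14.7% of all genes tested. The median log2 fold change was -0.28 over the members and 0.0016 over all genes tested.

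The libraries held 60320282 to 78629444 counts. The 8 fibroblast markers were detected in every library and summed to 17758 to 21333 CPM, while 7 endothelial and 6 epithelial markers summed to at most 6.89 and 2.52 CPM. IPRN 3 stood apart in the sum of 8 macrophage markers, 142 CPM there and 13.3 to 25.1 CPM in the remaining 5 libraries. Most of it was Lyz2, the lysozyme gene of myeloid cells, at 98.0 CPM there and 0.766 to 7.21 CPM elsewhere. Not every marker stood apart. Cd14 was at 8.40 CPM in IPRN 3, below the DMSO libraries (9.99 to 10.4 CPM) and above IPRN 1 and 2 (6.56 and 5.90 CPM). Ptprc and Fcgr1 were at 1.63 and 0.605 CPM in IPRN 3, against 1.47 and 0.382 CPM in DMSO 3. DMSO 1 and IPRN 3 carried almost no liver transcripts, with 12 markers at a sum of 1.53 and 2.22 CPM, where the remaining 4 held 25.9 to 88.2 CPM. Replicate pairs with IPRN 1 differed most, with a chi-square per degree of freedom of 97.8 and 104, against 36.0 to 51.9 in the other pairs. In bulk RNA, fewer cells of a type and less RNA per cell cannot be told apart.

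Promoter sequence is shown for the 5 members with an entry, which leaves out Plau and Plat. Of these 5, only Serpinf1 was not lower in every IPRN library, so the windows allow no comparison of motif with response. Of the 7 members, 5 had an entry among the RefSeq promoters (GRCm38.p6): F3, Plaur, Serpinb2, Serpine2 and Serpinf1. Each line holds the 250 bases before the start site, 5′ to 3′ on the gene's strand. Capitals mark TGANTCA, a loose form of the binding site of AP-1, the Fos and Jun dimer that growth factors induce. The windows are chr3:121723287-121723536 on the plus strand for F3, chr7:24462233-24462482 on the plus strand for Plaur, chr1:107511173-107511422 on the plus strand for Serpinb2, chr1:79858666-79858915 on the minus strand for Serpine2 and chr11:75422624-75422873 on the minus strand for Serpinf1.
F3: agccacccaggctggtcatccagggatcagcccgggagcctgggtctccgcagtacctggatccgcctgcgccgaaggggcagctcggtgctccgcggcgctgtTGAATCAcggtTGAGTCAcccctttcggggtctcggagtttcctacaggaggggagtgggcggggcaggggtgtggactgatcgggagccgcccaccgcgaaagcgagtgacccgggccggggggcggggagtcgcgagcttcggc
Plaur: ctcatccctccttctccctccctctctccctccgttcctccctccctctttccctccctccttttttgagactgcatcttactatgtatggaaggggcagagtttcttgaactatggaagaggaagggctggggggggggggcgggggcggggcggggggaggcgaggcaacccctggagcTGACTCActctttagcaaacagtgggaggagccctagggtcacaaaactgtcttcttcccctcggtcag
Serpinb2: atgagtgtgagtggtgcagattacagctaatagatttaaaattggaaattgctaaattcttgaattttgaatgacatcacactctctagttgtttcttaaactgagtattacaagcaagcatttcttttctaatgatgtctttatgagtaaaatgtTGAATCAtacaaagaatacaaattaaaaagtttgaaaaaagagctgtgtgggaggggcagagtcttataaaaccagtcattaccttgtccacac
Serpine2: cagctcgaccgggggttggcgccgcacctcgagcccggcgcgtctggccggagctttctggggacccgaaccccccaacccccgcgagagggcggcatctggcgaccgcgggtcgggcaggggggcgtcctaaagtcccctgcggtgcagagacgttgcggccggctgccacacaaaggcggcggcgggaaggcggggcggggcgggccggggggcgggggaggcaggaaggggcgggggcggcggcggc
Serpinf1: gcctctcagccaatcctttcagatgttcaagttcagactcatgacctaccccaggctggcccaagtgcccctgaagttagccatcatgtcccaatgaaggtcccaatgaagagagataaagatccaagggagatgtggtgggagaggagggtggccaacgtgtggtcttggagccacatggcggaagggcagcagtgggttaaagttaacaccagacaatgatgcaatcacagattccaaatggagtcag

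F3 held TGAATCA and TGAGTCA, starting 146 and 135 bases before the start site. Plaur held TGACTCA, starting 69 bases before it, and Serpinb2 held TGAATCA, starting 94 bases before it and followed by TATAAA at 29. Serpinb2 has a second RefSeq start downstream, whose window holds the same 2 matches. TGANTCA was in neither the window of Serpine2, a member lower in every IPRN library, nor that of Serpinf1, and in 6.75% of all 32851 promoter windows of the same length. The strict form TGACTCA, searched on both strands and contained in the loose form, was present in F3 and Plaur and in 4.46% of all windows. Of the other motifs searched on both strands, GCGNGGGCG, the letters bound by EGR factors, was found in Plaur and Serpine2 (4.70% of all windows), and GGGCGG, bound by SP1, in F3, Plaur and Serpine2 (32.7%). The cyclic AMP response element TGACGTCA was found in none of these windows (1.55% of all windows), and TATAAA only in Serpinb2 (12.4%). These matches describe letters in a window and do not show binding.

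**Figure D1:**
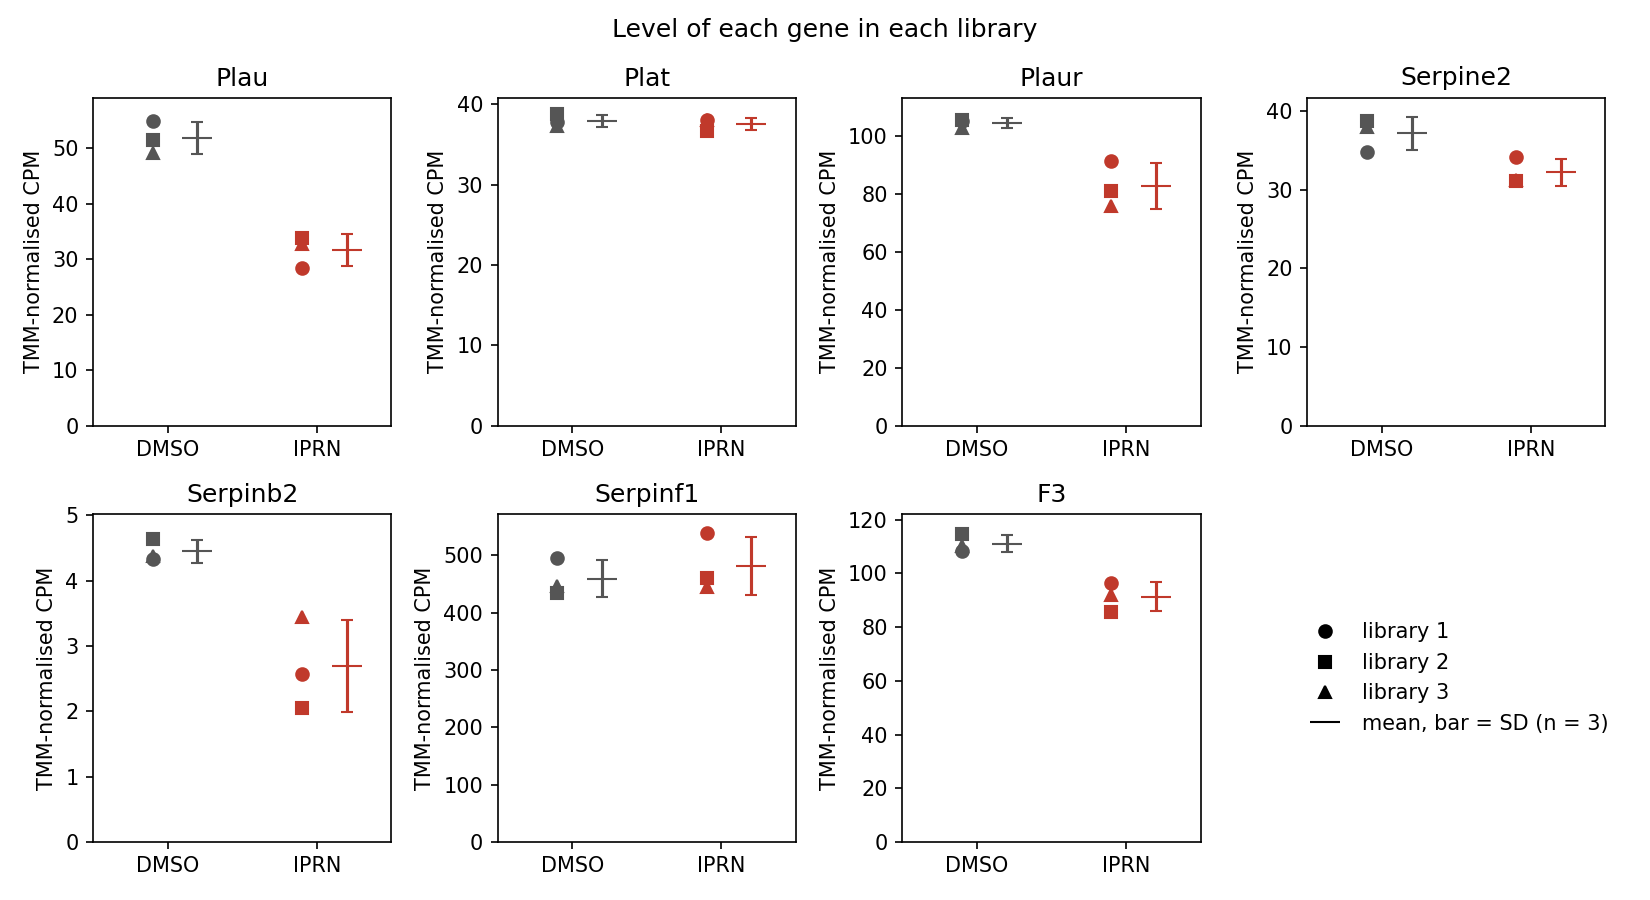
TMM-normalised CPM (y axis, from 0) of the 7 genes in the 3 DMSO libraries (grey) and the 3 IPRN libraries (red), with the mean and SD beside the points. The IPRN libraries lie below every DMSO library for Plau, Plaur, F3, Serpinb2 and Serpine2, and the groups overlap for Plat and Serpinf1.

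Of the activators, Plau (ENSMUSG00000021822, chromosome 14 from 20836660 to 20843385, plus strand, GRCm38) encodes urokinase. It measured 54.9, 51.6 and 49.2 CPM in DMSO 1, 2 and 3, and 28.5, 33.9 and 32.8 CPM in IPRN 1, 2 and 3. The groups stood well apart, and IPRN 1 was the lowest library. The log2 fold change was -0.71 ± 0.087 (SE), with an edgeR adjusted p of 0.00986. Plau was the member with the smallest adjusted p. It was no longer called without DMSO 1 (adjusted p = 0.0569), without DMSO 2 (0.0588) or without DMSO 1 and IPRN 3 together (0.158, log2 fold change -0.69). Without IPRN 3 alone it stayed called, at -0.74 and an adjusted p of 0.0387.

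Plat (ENSMUSG00000031538, chromosome 8 from 22757727 to 22782844, plus strand) encodes tissue plasminogen activator. It measured 37.8, 38.7 and 37.2 CPM in DMSO 1, 2 and 3, and 37.99, 36.6 and 38.02 CPM in IPRN 1, 2 and 3. The groups overlapped, and the coefficient of variation was 1.98% in DMSO and 2.15% in IPRN. Its log2 fold change was -0.01 ± 0.060 (SE), with an edgeR adjusted p of 0.931.

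Plaur (ENSMUSG00000046223, chromosome 7 from 24462484 to 24475968, plus strand) encodes the urokinase receptor. It measured 105, 106 and 103 CPM in DMSO 1, 2 and 3, and 91.4, 80.9 and 75.8 CPM in IPRN 1, 2 and 3. All IPRN libraries were below the DMSO libraries, but they were spread more widely, with a coefficient of variation of 9.60% against 1.59%. The log2 fold change was -0.34 ± 0.074 (SE), and the edgeR adjusted p of 0.0490 lay just inside the threshold. The call was kept without IPRN 1 (adjusted p = 0.0113, log2 fold change -0.42) and ended when any other library was left out (0.109 to 0.174). Without IPRN 3, the library with the highest sum of macrophage markers and the lowest Plaur, the log2 fold change was -0.28. Plaur was also not called without a filter on low counts (0.0712) or without DMSO 1 and IPRN 3 together (0.273). Nor was it called with a term for liver transcripts (0.0756), which marked DMSO 1 and IPRN 3 against the other libraries.

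F3 (ENSMUSG00000028128, chromosome 3 from 121723537 to 121735048, plus strand) encodes tissue factor, the membrane receptor that binds factor VII. It measured 108, 115 and 110.3 CPM in DMSO 1, 2 and 3, and 96.3, 85.8 and 92.1 CPM in IPRN 1, 2 and 3. The IPRN libraries were all lower, by a margin smaller than that of Plau. On the log2 scale the change was -0.28 ± 0.059 (SE), with an edgeR adjusted p of 0.0427. Like Plaur, F3 was called without IPRN 1 (0.0287) and not when any other library was left out (0.104 to 0.168). Without IPRN 3 its log2 fold change was -0.29. F3 too was not called without a filter on low counts (0.0673), with a term for liver transcripts (0.0809) or without DMSO 1 and IPRN 3 together (0.252).

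**Figure D2:**
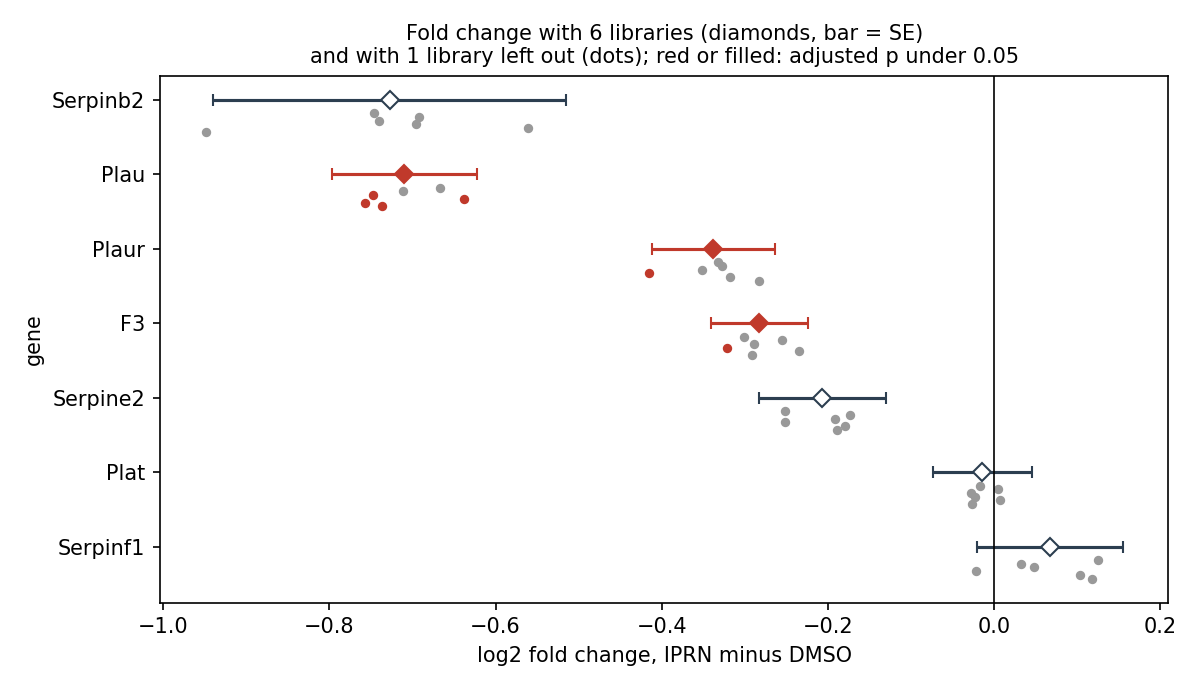
Log2 fold change of IPRN minus DMSO (x axis) for each gene (y axis), with 6 libraries (diamonds, bars are the SE) and with each library left out (dots below), red where the edgeR adjusted p is under 0.05. Every fit for Plau, Plaur, F3, Serpinb2 and Serpine2 lies below 0, while the fits for Plat and Serpinf1 lie on both sides of 0.

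Among the serpins, Serpinb2 (ENSMUSG00000062345, chromosome 1 from 107511423 to 107532535, plus strand) encodes an inhibitor of urokinase that stays largely inside the cell and is abundant in activated macrophages. It was the least abundant member, with 260, 338 and 343 counts in DMSO 1, 2 and 3, and 183, 153 and 222 counts in IPRN 1, 2 and 3. These correspond to 4.33, 4.64 and 4.37 CPM, and to 2.57, 2.05 and 3.45 CPM. The groups did not overlap, but the IPRN libraries varied by 26.2% against 3.85% in DMSO. The highest of the 3 was IPRN 3, the library in which the macrophage markers summed to 142 CPM, and their part in its Serpinb2 level was not tested. The log2 fold change was -0.73 ± 0.212 (SE), as large as that of Plau, with an edgeR adjusted p of 0.1004 that did not pass. Without IPRN 3 it was -0.95 (adjusted p = 0.0665). DESeq2 called Serpinb2 lower (adjusted p = 0.0301), so that 4 of the 7 members were called lower by that tool, against 6.49% of all genes. Serpinb2 shares exon sequence with the neighbouring model Serpinb10 on the same strand, so its counts are uncertain.

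Serpine2 (ENSMUSG00000026249, chromosome 1 from 79794197 to 79858696, minus strand) encodes protease nexin 1, a secreted inhibitor of thrombin, urokinase and tissue plasminogen activator. It measured 34.8, 38.7 and 38.0 CPM in DMSO 1, 2 and 3, and 34.2, 31.1 and 31.3 CPM in IPRN 1, 2 and 3. The groups were only just separate, with DMSO 1 next to IPRN 1. Its log2 fold change was -0.21 ± 0.076 (SE), and it did not pass (edgeR adjusted p = 0.172). Leaving out any 1 of the 6 libraries did not change this (0.114 to 0.414).

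Serpinf1 (ENSMUSG00000000753, chromosome 11 from 75409769 to 75422701, minus strand) encodes pigment epithelium-derived factor, a secreted serpin that restrains vessel growth and does not inhibit proteases. It measured 496, 435 and 447 CPM in DMSO 1, 2 and 3, and 539, 459.8 and 445 CPM in IPRN 1, 2 and 3. The groups overlapped, and library 1 was the highest in each. On the log2 scale the change was 0.07 ± 0.087 (SE), with an edgeR adjusted p of 0.732.

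Levels of different genes were compared per transcript length, with the FPKM values that the authors deposited. In DMSO the order was Serpinf1 (175 ± 12.1 FPKM), F3 (39.5 ± 1.23), Plaur (35.8 ± 0.639), Plau (19.7 ± 1.12), Plat (5.45 ± 0.121), Serpine2 (4.03 ± 0.227) and Serpinb2 (1.70 ± 0.0680), with SD and n = 3. No neighbours in this order overlapped between their DMSO libraries. In IPRN the order was the same, but F3 (30.7 to 33.7 FPKM) and Plaur (26.4 to 30.9 FPKM) overlapped. The receptor message thus stood above that of its ligand in both groups, and the non-inhibitory Serpinf1 above all other members. The messages of the inhibitors Serpine2 and Serpinb2 were below those of Plau and Plat in every library.

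**Figure D3:**
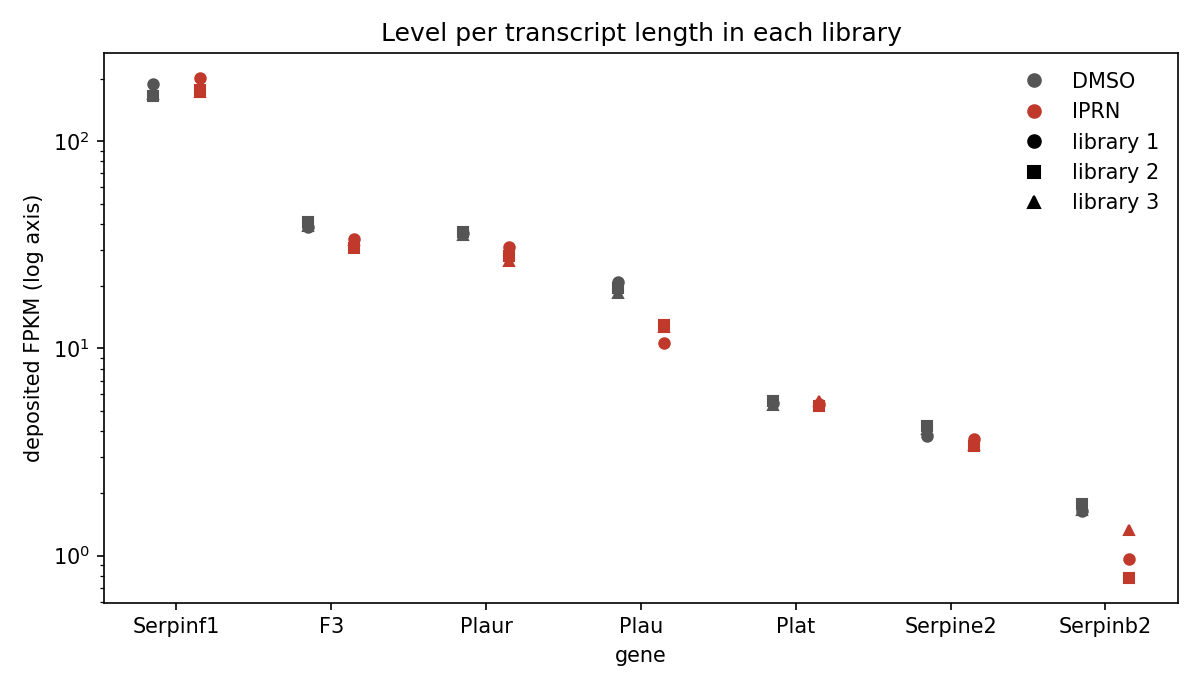
Deposited FPKM on a log axis (y axis) of the 7 genes (x axis) in each DMSO library (grey) and IPRN library (red). Levels run from about that of Serpinb2, 0.784 FPKM in IPRN 2, to that of Serpinf1, 202 FPKM in IPRN 1.

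Ratios within a library compare members without any scaling between libraries. Plau to Plat was 3.84, 3.51 and 3.48 in DMSO 1, 2 and 3, compared with 1.98, 2.44 and 2.27 in IPRN 1, 2 and 3. Urokinase message therefore exceeded that of tissue plasminogen activator in all 6 libraries, by 1.62-fold less under IPRN. Plau to Serpine2, the activator against its inhibitor, was 5.53, 4.66 and 4.53 in DMSO, and 2.92, 3.81 and 3.67 in IPRN. Plat to Serpine2 moved the other way, from 1.36 ± 0.0737 to 1.55 ± 0.0708 (SD, n = 3). Plau to Plaur, the ligand against its receptor, was 0.549 ± 0.0246 in DMSO and 0.429 ± 0.0732 in IPRN. The 2 groups did not overlap in any of these 4 ratios. All but Plat to Serpine2 have Plau as numerator, so they share its fall and are not separate results. The share of such ratios over all gene pairs was not computed. Each two-sided exact permutation test gave p = 0.1, the smallest value that 3 libraries against 3 allow, and 0.1 after Benjamini-Hochberg adjustment over the 4 ratios. Without IPRN 1, where Plau was lowest and Plaur highest of the IPRN libraries, the log2 difference of Plau to Plaur was -0.22 in place of -0.37.

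**Figure D4:**
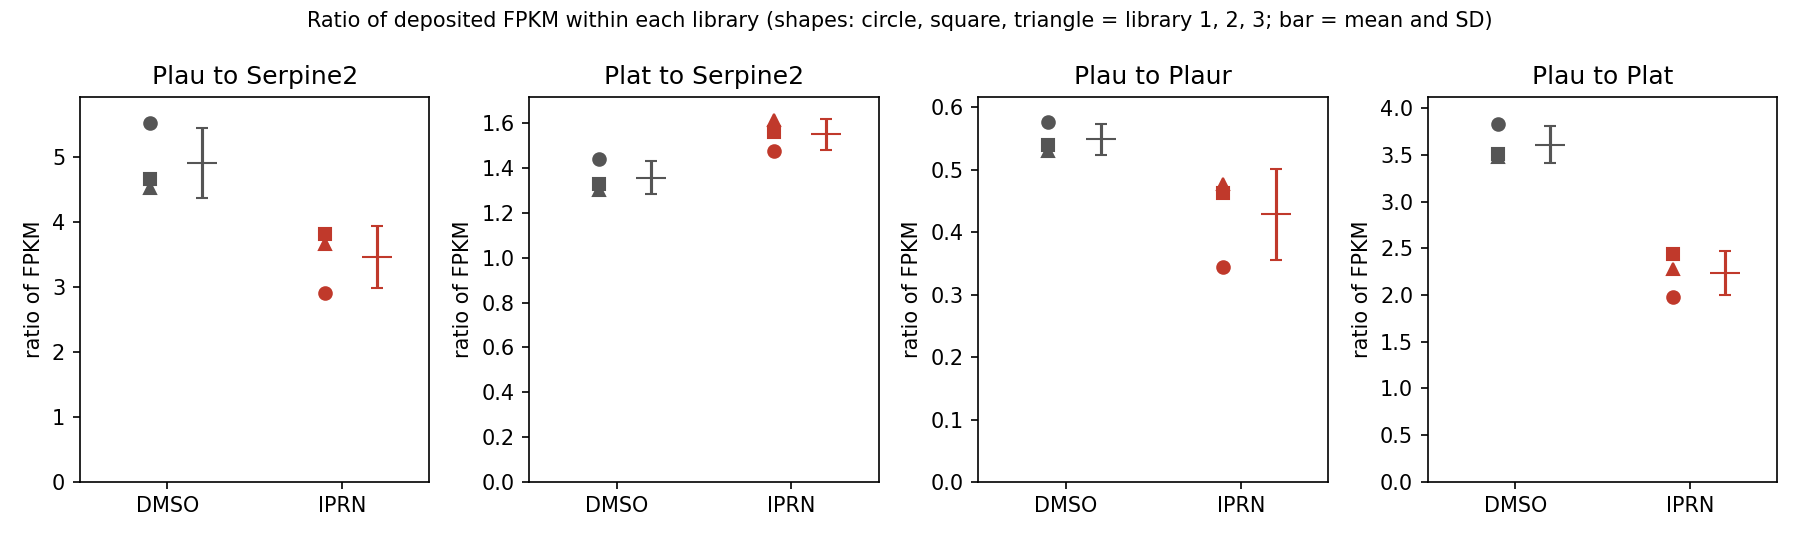
Ratio of deposited FPKM (y axis, from 0) of 4 gene pairs within each DMSO library (grey) and IPRN library (red), with the mean and SD beside the points. Plau to Serpine2, Plau to Plaur and Plau to Plat are lower in every IPRN library than in every DMSO library, and Plat to Serpine2 is higher.

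The surroundings of the system were described with 4 further lists of 58 genes, of which 47 could be tested, 5 rose and 3 fell. Across all 17159 genes tested, 2.46% were called higher and 3.01% lower. Genes for the capture of plasminogen, the partners of the urokinase receptor and the clearance of activators and their complexes were all tested. Of these 15, 3 rose, 0 fell and 12 missed the threshold, and the median log2 change was 0.12. An unadjusted p under 0.05 in edgeR was found for 6 (22.0% of all genes), and DESeq2 called 4 (13.3% of all genes). Lrp1, the endocytic receptor that removes activator and inhibitor complexes and brings the urokinase receptor in with them, went from 2048 ± 52.1 to 2663 ± 87.4 CPM, a 1.30-fold rise (edgeR adjusted p = 0.00785). Mrc2, a collagen receptor found in complex with the urokinase receptor, rose 1.27-fold from 157 ± 4.32 to 199.6 ± 6.24 CPM (0.0132). The third was the fibronectin receptor subunit Itga5 (1.28-fold, 0.0108). Lrp1 and Itga5 were not called without DMSO 1 (0.0569 and 0.0691) or DMSO 2 (0.0542 and 0.0714), and Mrc2 was called only without IPRN 1 or IPRN 3. The plasminogen-binding proteins Anxa2, S100a10 and Eno1, named after their values were seen, did not pass (edgeR adjusted p = 0.947, 0.980 and 0.963). Anxa2, for one, averaged 929 ± 20.3 CPM under DMSO and 924 ± 25.7 CPM under IPRN. Plgrkt, a further plasminogen-binding gene also named after its values were seen, averaged 16.4 ± 1.51 and 19.6 ± 1.59 CPM. Its groups overlapped and it did not pass (log2 fold change 0.25, edgeR adjusted p = 0.217).

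Plasminogen itself and the fibrinogen chains were at 0 in DMSO 1 and IPRN 3 and present at 0.134 to 4.22 CPM in the other 4 libraries. The same 2 libraries had the lowest sums of liver markers, and IPRN 1, the highest in each of these genes, had the highest sum. Plg, the plasminogen gene, had 0, 84 and 46 counts in DMSO 1, 2 and 3, and 137, 10 and 0 counts in IPRN 1, 2 and 3. DMSO 1 and IPRN 3, which had no Plg count, were the libraries in which the liver markers summed to 1.53 and 2.22 CPM, so a level of up to 0.0497 and 0.0472 CPM (3 counts) is allowed there, for counting error only. Fgg and Fga, fibrinogen chain genes made in liver, were also at 0 in DMSO 1 and IPRN 3 and highest in IPRN 1, at 3.44 and 3.45 CPM. Plg and Fgg share exon sequence with other models (Slc22a3 and Gm30097). Of 12 genes in this list 8 could be tested and 0 passed in edgeR, with 0 at an unadjusted p under 0.05 and 0 called by DESeq2. Over all genes tested, 22.0% had such an unadjusted p in edgeR and 13.3% were called by DESeq2 in either direction. The part of liver transcripts in these levels was not tested.

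Of 17 genes of the tissue factor pathway and thrombin signalling, 11 could be tested and 0 passed in edgeR. An unadjusted p under 0.05 was found for 3, a share near that over all genes (22.0%), and the same 3 were called by DESeq2 (13.3% of all genes). F2r, which encodes the main thrombin receptor, averaged 207 ± 4.31 CPM under DMSO and 248 ± 20.4 CPM under IPRN (edgeR adjusted p = 0.0732). Thbd, which encodes thrombomodulin, an endothelial cofactor that turns thrombin to anticoagulant use, measured 189 ± 6.92 and 164 ± 5.15 CPM (0.0640). The third was Procr, the protein C receptor gene, at 21.0 ± 0.709 and 17.2 ± 0.460 CPM (0.0791). It was named after its values were seen. F7, which encodes the ligand of tissue factor, and F10, a substrate of their complex, were also named after their values were seen. They had 0 to 19 and 0 to 49 counts per library.

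Among 14 genes for proteins that plasmin or the activators cut or activate, 13 could be tested. Of these, 2 rose, 3 fell and 8 did not pass (median 0.08), where 2.46% of all genes tested were called higher and 3.01% lower. Hgf, whose product hepatocyte growth factor is secreted as a precursor that urokinase can cleave, fell from 61.6 ± 3.74 to 38.6 ± 0.333 CPM (edgeR adjusted p = 0.00347), a 1.60-fold change that held whichever of the 6 libraries was left out. Hgf shares exon sequence with the model Gm43489. The collagenase gene Mmp13 had 65, 100 and 110 counts in DMSO 1, 2 and 3, against 4, 0 and 8 in IPRN 1, 2 and 3 (0.0400). The stromelysin gene Mmp10 had 72, 32 and 82 counts, and 4, 0 and 0 (0.0433). Both were rare messages, and leaving out 5 of the 6 libraries, 1 at a time, ended the call of each. Mmp13 was then called only without IPRN 2 (otherwise 0.0551 to 0.148) and Mmp10 only without IPRN 1 (otherwise 0.0959 to 0.151). Mmp14, a membrane collagenase, and the fibronectin gene Fn1 rose, by 1.23-fold and 1.29-fold (adjusted p = 0.0214 and 0.0153). Fn1 shares exon sequence with Apol7d. Neither was called without DMSO 1, DMSO 2, DMSO 3 or IPRN 2 (0.0509 to 0.109), nor was Mmp14 without IPRN 3 (0.0502).

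**Figure D5:**
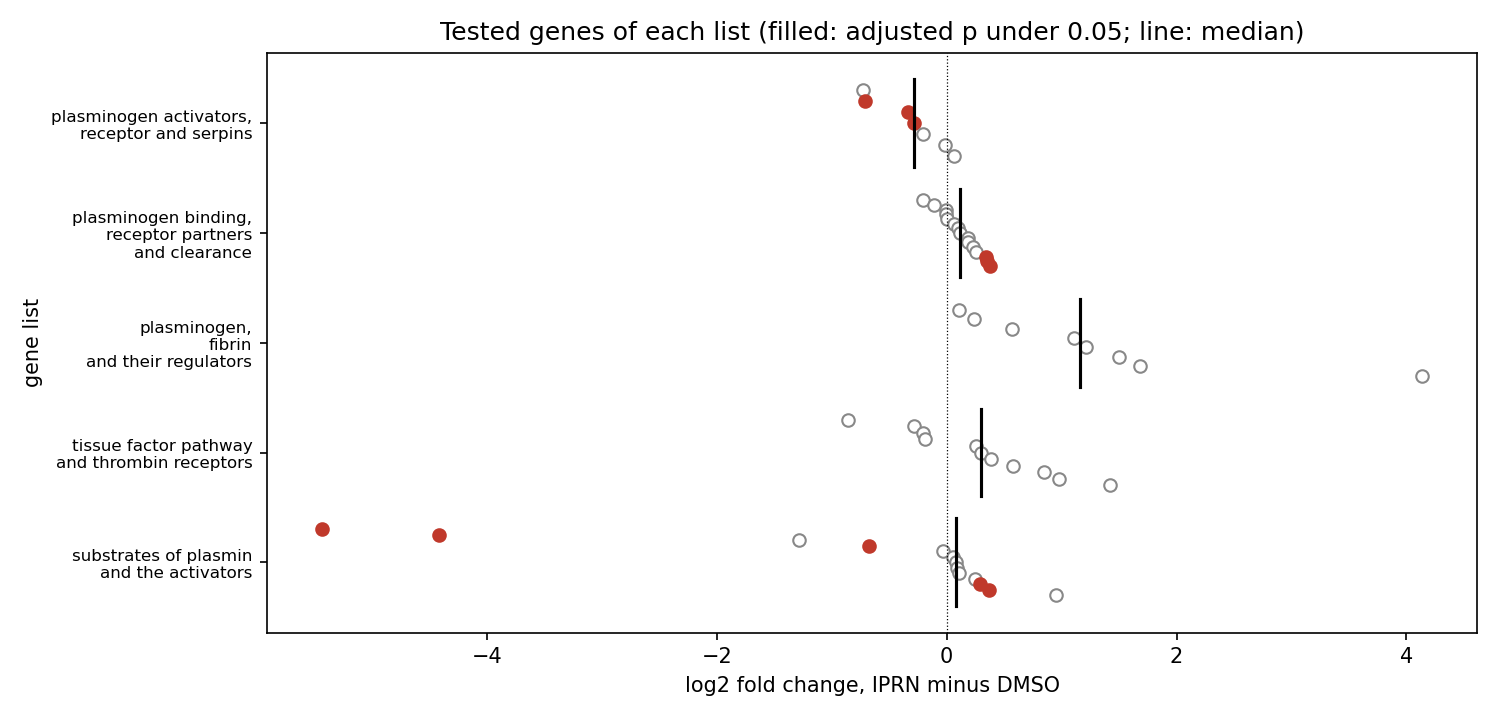
Log2 fold change of IPRN minus DMSO (x axis) of each tested gene in the 5 lists (y axis), filled red where the edgeR adjusted p is under 0.05, with the median of each list as a line. The largest falls are those of Mmp10 and Mmp13, and none of the 8 genes in the plasminogen and fibrin list is filled.

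For each called member, the tested genes with the most similar profile were sought by Pearson's r of log2 CPM over the 6 libraries, among 9905 genes averaging at least 5 CPM. For Plau these were Tet3, a methylcytosine dioxygenase gene (r = 0.998), and Mir22hg, the host transcript of a microRNA (r = 0.997). For Plaur they were Dnajc2 and Mak16 (r = 0.997 and 0.996), and for F3 Ptbp2 and Abce1 (r = 0.998 and 0.996). Mir22hg and Mak16 overlap exons of other models. All 6 had a lower mean in IPRN, by 1.13-fold to 1.38-fold. With 6 libraries in 2 groups, these values also carry the difference between the groups and are given as a description.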

How the data were processed

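Messenger RNA of 3 DMSO and 3 IPRN libraries was captured with oligo(dT), fragmented and copied with random primers, per the labels' protocols, which describe no step that marks strand. The authors deposited a count per Ensembl gene, without normalization, and an FPKM value, scaled by length and depth, per the file headers. Reads were trimmed with cutadapt 1.9, per the submitters' processing notes. Aligner, counting tool, strand setting and build: not given in the sources used here. GENCODE M21 (GRCm38) held 55141 of the IDs, 94.2% of them at an identical position.

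The count test used edgeR 4.0.16 under R 4.3.3, with TMM scaling, the default expression filter (minimum count 10), and the quasi-likelihood test on group, two-sided, with Benjamini-Hochberg adjustment over all 17159 genes tested and a threshold of 0.05. The SE was derived from the log2 fold change and F statistic. DESeq2 1.42.0 was an alternative. Libraries of 60320282 to 78629444 counts give a floor of 3 counts at 0.0382 to 0.0497 CPM. Counts of replicate pairs differed by more than sampling noise. The edgeR fit was tested on simulated data, where it recovered 32.8% of 1.5-fold, 73.1% of 2-fold and 90.9% of 4-fold changes. Of its calls there, 6.43% were false. A gene that did not pass can therefore still have changed by a small factor.

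The members and gene lists were chosen with earlier results of these data known. Named genes are the members, up to 6 called genes of each list by adjusted p or else the 2 with the highest FPKM, up to 4 other called serpins, and the 2 genes most like each called member. Exon overlap was read from GENCODE M21. Alternatives were other scaling, DESeq2, 2 other filters, a replicate block, each library left out, DMSO 1 and IPRN 3 left out together, and a term for liver transcripts. That term marked DMSO 1 and IPRN 3 against the other libraries and did not use the level of liver transcripts. It therefore also takes in anything else that sets those libraries apart. Ratios were also computed from CPM.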

Additional observations from a re-analysis of the deposited data

How the results depend on the processing

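The edgeR test called 938 genes, 3 members and 8 genes of the 4 surrounding lists. DESeq2 called 2283, 4 and 11. Without a filter on low counts these were 621, 1 and 6, and with a term for liver transcripts 429, 1 and 6, Plau being the member called in both. Without DMSO 1 and IPRN 3 they were 53, 0 and 0, with 4 members and 15 list genes at an unadjusted p under 0.05, as were 14.9% of all genes in that fit. With 1 library left out the counts ran from 133 to 1047 genes, from 0 to 3 members and from 1 to 9 list genes. The lowest came without DMSO 1, for members and list genes also without DMSO 2, and the highest without IPRN 1. Other scaling and a filter at a mean of 50 counts left 3 members called, the same genes. Plau, Plaur, F3, Serpinb2 and Serpine2 kept their direction in all 13 alternatives. The log2 fold change of Plat, -0.01, turned to 0.00431 without DMSO 2 and 0.00763 without IPRN 2, and ran from -0.0278 to 0.00763 with 1 library left out. That of Serpinf1, 0.07, ran from -0.0218 (without IPRN 1, its only reversal in the 13 alternatives) to 0.125 with 1 library left out, and was 0.18 without DMSO 1 and IPRN 3. The 4 ratios kept their direction in every alternative run.

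The replicate numbers showed no clear pairing of the libraries. Deviations of same-numbered libraries correlated at 0.0653, -0.0194 and -0.0279, and only number 1 correlated best with its own. All correlations were weak and rest on few libraries per group, so they cannot settle whether the libraries were paired. With replicate number as a block, 103 genes, 0 members and 1 list gene (Hgf) were called by edgeR, with 4 members at an unadjusted p under 0.05, against 18.7% of all genes. The edgeR adjusted p was then 0.0770 for Plau, 0.117 for Plaur and 0.152 for F3. Serpinb2 had the fewest counts of the members, 153 to 343 per library. The causes of these shifts were not tested.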

Other observations

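Outside the members and lists, 60 further serpin genes were listed, of which 22 could be tested. Of these, 0 rose, 3 fell and 19 did not pass (median log2 fold change -0.23). The shares over all genes tested were 2.46% higher and 3.01% lower. All 3 serpin genes that fell belong to the Serpina3 cluster on chromosome 12, relatives of human antichymotrypsin. Serpina3g measured 27.5, 28.6 and 29.6 CPM in DMSO 1, 2 and 3, and 14.8, 14.3 and 13.4 CPM in IPRN 1, 2 and 3, a 2.01-fold fall (edgeR adjusted p = 0.00161) that held whichever of the 6 libraries was left out. Serpina3n fell 1.48-fold, from 27.5 ± 3.06 to 18.5 ± 0.935 CPM (SD, n = 3; adjusted p = 0.0299), and, with 1 library left out, was called only without IPRN 1. Serpina3f had 90, 471 and 182 counts in DMSO and 30, 42 and 25 in IPRN (adjusted p = 0.0384), and was called in none of the 6 fits that left out 1 library (0.0550 to 0.114). The Serpina3 genes are related copies, so their counts may be split between them and are uncertain. How alike their sequences are was not tested.

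F13a1, the transglutaminase subunit gene that crosslinks fibrin, had 5, 15 and 19 counts in DMSO 1, 2 and 3, 23 and 0 in IPRN 1 and 2, and 598 in IPRN 3. IPRN 3 was also the library with the highest sum of macrophage markers, 142 CPM, with 839 counts of Itgam against 0 to 54 in the other 5.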
